A study of Mus musculus with 8 samples.

Results

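The livers of 18-day-old mice were examined for the acute phase proteins, the plasma proteins and regulators that the liver makes in amounts that change with inflammation. The 10 members were Saa1, Saa2, Saa3, Orm1, Orm2, Apcs, Crp, Hp, Il1rn and Itih4. They were chosen by name, as every probe that the platform annotation assigns to these symbols, which gave 16 of the 25697 probes on the array and 10 of its 16593 named genes. Liver RNA of 4 Cic-L-/- and 4 wildtype samples, all of strain C57BL per the labels, was hybridised to single-colour bead arrays, 1 array per sample. Cic encodes the HMG-box repressor capicua, and CIC-L is its long form. The sources used here do not give how the allele was made, the sex of the mice or whether each sample came from its own animal. The p-values therefore measure only the spread among these 8 samples, part of which may be technical.

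In an acute phase response, cytokines released at a site of injury or infection reach the hepatocyte. IL-6 acts through the shared receptor chain gp130 and the transcription factor STAT3, and IL-1 and TNF act through NF-kB. Together with C/EBP factors and the glucocorticoid receptor, these pathways raise the positive acute phase genes and lower the negative ones, such as albumin and transthyretin. In the mouse, the pentraxin serum amyloid P, encoded by Apcs, responds strongly, while CRP, the main pentraxin of the human response, responds little.

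A probe was counted as above background on an array when its intensity was reached by under 5% of 1124 control rows. Between 38.7% and 43.5% of probes were above background on an array. The median of the control rows was 138.5 to 141.9 in Cic-L-/- samples, against 114.2 to 136.3 in wildtype samples, so background was higher in every Cic-L-/- sample. On the first principal component, which took 42.5% of the variance, the groups separated, and on the second (14.2%) Cic-L-/- replicates 1 and 2 (13.7 and 12.8) stood apart from replicates 3 and 4 (-11.6 and -25.0). Values below are log2 intensities after background correction and quantile normalisation unless another scale is named. Differences are Cic-L-/- minus wildtype and were tested with limma, and p-values carry a Benjamini-Hochberg adjustment over the 8255 features tested. In bulk tissue, fewer cells of a type and less RNA per cell cannot be told apart.

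Of the 10 members, 7 had a probe above background on at least 4 arrays and were tested, and of these 1 passed an adjusted p under 0.05: Il1rn was higher in Cic-L-/- liver. Over all features, 7.39% passed in either direction, 4.49% passed as higher and 2.9% as lower. Of the 7 tested members 4 had positive differences, and their median was 0.17, against 0.00316 over all features. That median is the value of an Hp probe at the ceiling of the scale; with either of the dimmer Hp probes in its place it would be that of Itih4, 0.29. Orm1 had the widest difference, at -2.32, and was not called. The remaining 3 members, Saa1, Saa2 and Saa3, were too dim to enter the test.

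**Figure D1:**
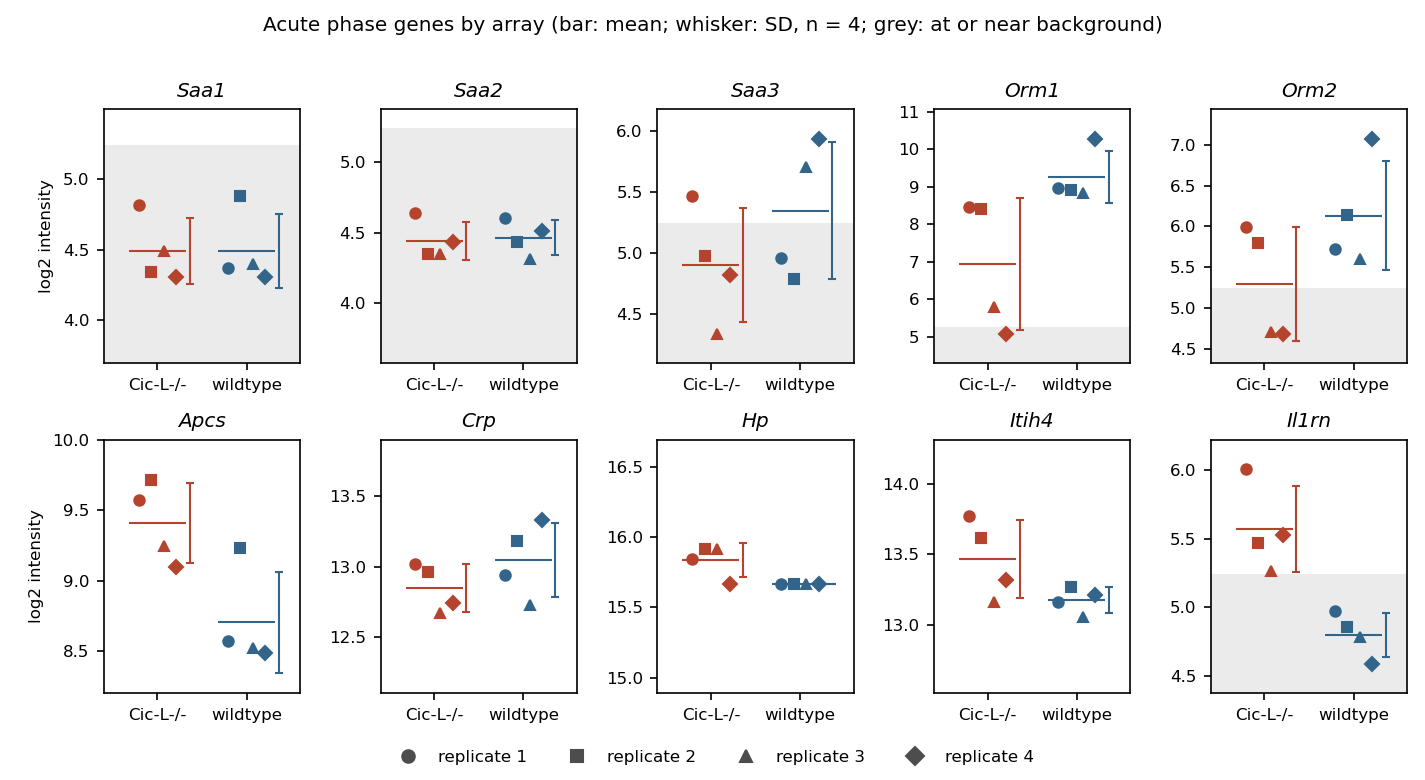
Log2 intensity of each acute phase gene on the 8 arrays, with the Cic-L-/- samples left of the wildtype samples; for a gene with several probes the probe standing for it is shown. Horizontal bars are means, whiskers are SDs (n = 4), marker shapes are replicate numbers, and grey covers values below the highest of the arrays' detection limits. Saa1 and Saa2 lie in the grey zone on all 8 arrays, and Orm1 spreads from 5.08 to 8.47 in Cic-L-/- liver.

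Serum amyloid A. Saa1 and Saa2 encode the serum amyloid A proteins that the mouse liver secretes into high-density lipoprotein during inflammation, and Saa3 encodes a form made in many other tissues. Saa1 was not above background on any of the 8 arrays, with intensities of 150.4, 121.5, 133.6 and 120.7 in Cic-L-/- replicates 1 to 4 and of 115.0, 124.4, 124.4 and 101.2 in wildtype replicates 1 to 4. Saa2 was likewise not above background on any array, with intensities of 122.4 to 143.0 in Cic-L-/- liver, against 106.6 to 128.9 in wildtype liver. These intensities overlap those of the control rows on the same arrays. In the fit over all probes on the array, where 1.88% passed, the difference was -0.00132 for Saa1 (95% interval -0.36 to 0.36) and -0.02 for Saa2 (-0.27 to 0.22). A probe at background gives only a bound on its transcript. The single fibrinogen beta probe, Fgb, was also not above background on any array, although those of Fga and Fgg, the other chains of the same abundant plasma protein, averaged 15.1 and 11.46 in Cic-L-/- liver, against 15.0 and 11.47 in wildtype liver.

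The Saa3 probe exceeded background only in Cic-L-/- replicate 1 and in wildtype replicates 3 and 4. Its log2 values were 5.47, 4.98, 4.34 and 4.82 in Cic-L-/- replicates 1 to 4, against 4.96, 4.79, 5.70 and 5.93 in wildtype replicates 1 to 4. The groups overlapped, and wildtype replicates 3 and 4 held the highest values. The difference was -0.44 ± 0.29 (SE, limma adjusted p = 0.638 over all probes on the array). Saa4, a relative made constitutively and bound to the same lipoprotein, was above background on all 8 arrays and differed by -0.54 ± 0.30 (adjusted p = 0.319). The cluster of Saa genes lies on chromosome 7, the chromosome of Cic, with 475 to 478 protein-coding genes between its members and Cic in assembly GRCm38.p6.

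The promoters of the Saa genes and of Orm2 are shown because they share a C/EBP-type element, and the level of 1 such factor, Cebpb, is described with the upstream regulators. Sequences are from RefSeq, build GRCm38.p6, and run from 250 bases before to 50 after the annotated start, 5′ to 3′ on the gene's strand. Capitals mark the letters TTGCNNAA on either strand.
Saa1, chr7:46742931-46743230, minus strand: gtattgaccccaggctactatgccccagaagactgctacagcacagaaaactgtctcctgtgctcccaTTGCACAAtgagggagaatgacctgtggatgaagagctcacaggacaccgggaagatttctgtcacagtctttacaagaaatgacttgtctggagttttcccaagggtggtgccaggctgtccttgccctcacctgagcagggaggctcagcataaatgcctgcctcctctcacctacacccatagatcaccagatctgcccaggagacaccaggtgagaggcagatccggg
Saa2, chr7:46751583-46751882, plus strand: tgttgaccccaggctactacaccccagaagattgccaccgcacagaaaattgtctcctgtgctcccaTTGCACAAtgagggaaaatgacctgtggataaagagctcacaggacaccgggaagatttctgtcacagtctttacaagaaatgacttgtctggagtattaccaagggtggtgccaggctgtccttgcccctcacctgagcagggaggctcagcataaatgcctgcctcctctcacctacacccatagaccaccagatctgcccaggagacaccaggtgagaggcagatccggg
Saa3, chr7:46715627-46715926, minus strand: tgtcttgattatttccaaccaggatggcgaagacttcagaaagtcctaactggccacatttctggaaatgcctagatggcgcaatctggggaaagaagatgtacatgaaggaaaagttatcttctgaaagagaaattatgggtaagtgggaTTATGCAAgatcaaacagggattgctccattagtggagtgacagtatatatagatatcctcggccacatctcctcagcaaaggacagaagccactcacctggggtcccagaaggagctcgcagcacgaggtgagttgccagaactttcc
Orm2, chr4:63362199-63362498, plus strand: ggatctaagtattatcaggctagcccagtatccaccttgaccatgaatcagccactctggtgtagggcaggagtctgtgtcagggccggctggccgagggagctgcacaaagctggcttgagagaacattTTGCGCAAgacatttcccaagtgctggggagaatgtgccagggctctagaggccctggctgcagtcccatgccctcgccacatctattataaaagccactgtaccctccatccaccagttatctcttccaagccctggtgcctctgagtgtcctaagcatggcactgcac

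The Saa1 and Saa2 windows were identical at 287 of 301 aligned positions (95.3%), while Saa1 and Saa3 shared 54.1%. Of the 8 members with a window, which had 10 windows in all, these 4 held TTGCNNAA, and 10.8% of all 32851 windows of the same length hold it. Orm1 and Hp had no window and were not searched. The near-identical Saa1 and Saa2 windows are not independent matches. A STAT-type element, TTCNNNGAA, was found in the Apcs and Itih4 windows and in 8.30% of all windows. An NF-kB-type element was found in the windows of Saa1, Saa2, Crp, Il1rn and Itih4, but also in 50.8% of all windows. Both strands were searched, and no window held both the C/EBP-type and the STAT-type letters. A match is a run of letters and does not show that a factor binds there. Of these 4 genes with the C/EBP-type element, only Orm2 passed the detection filter.

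Orosomucoids. Orm1 and Orm2 encode alpha-1-acid glycoprotein, an abundant plasma protein that binds basic drugs and dampens immune cells. Orm1 had log2 values of 8.47, 8.41, 5.80 and 5.08 in Cic-L-/- replicates 1 to 4, against 8.98, 8.92, 8.85 and 10.29 in wildtype replicates 1 to 4. The groups did not overlap, which was true of 15.1% of all features, and of 6.55% with the Cic-L-/- group lower. Within the Cic-L-/- group replicates 1 and 2 lay just below wildtype, while replicates 3 and 4 were far below, and replicate 4 was not above background. The SD of the Cic-L-/- values, 1.76, ranked 1 among the 8255 features (0.69 in wildtype), and it ranked 6 without background correction. The difference was -2.32 ± 0.69 (SE, 4.99-fold lower, adjusted p = 0.0673), which did not pass.

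The Orm1 call turned on single samples and on the background model. It passed without Cic-L-/- replicate 1 (-2.82, adjusted p = 0.0417) or replicate 2 (-2.81, adjusted p = 0.0422), and with no background correction (-1.43, adjusted p = 0.0483), normexp without the control rows, an offset of 50 or a variance trend. Its adjusted p over all alternatives was 0.0285 to 0.189.

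Orm2 had log2 values of 5.99, 5.80, 4.71 and 4.68 in Cic-L-/- replicates 1 to 4, against 5.72, 6.14, 5.59 and 7.07 in wildtype replicates 1 to 4. Again Cic-L-/- replicates 3 and 4 were the lowest, here at background, while replicates 1 and 2 lay within the wildtype range. The difference was -0.84 ± 0.37 (SE, adjusted p = 0.208). Wildtype replicate 4 held the highest value of both genes. The probe of Orm3, the remaining copy of the cluster on chromosome 4, was not above background on any array. The Orm2 and Orm3 promoter windows were 86.6% identical, and the 3 genes are close paralogs, so transcripts of one bound by the probe of another cannot be separated here.

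Pentraxins. Apcs, the strongly responding pentraxin of the mouse, had log2 values of 9.58, 9.71, 9.25 and 9.10 in Cic-L-/- replicates 1 to 4, against 8.57, 9.24, 8.52 and 8.49 in wildtype replicates 1 to 4. Wildtype replicate 2 reached into the Cic-L-/- range and the other wildtype samples lay below it. The difference was 0.71 ± 0.21 (SE, 95% interval 0.25 to 1.16, 1.63-fold higher, adjusted p = 0.0626), which did not pass. It passed without wildtype replicate 2 (0.88, adjusted p = 0.0256) or without Cic-L-/- replicate 4 (0.81, adjusted p = 0.0474), and also with no background correction (0.58, adjusted p = 0.0398), the replicate block (adjusted p = 0.0391) and 5 further settings. Over all its alternatives the adjusted p was 0.0256 to 0.164, and the difference was positive in each.

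Crp, which encodes C-reactive protein and lies near Apcs on chromosome 1, had log2 values of 13.02, 12.96, 12.67 and 12.74 in Cic-L-/- replicates 1 to 4, against 12.94, 13.18, 12.73 and 13.33 in wildtype replicates 1 to 4. The groups overlapped throughout. The difference was -0.20 ± 0.17 (SE, 95% interval -0.57 to 0.17, adjusted p = 0.530).

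Haptoglobin and Itih4. Hp encodes haptoglobin, which captures free haemoglobin, and Itih4 encodes a heavy chain of the inter-alpha-trypsin inhibitor family that is cut by kallikrein. The probe standing for Hp, ILMN_2944824, was among the 3 brightest probes of every array. Its intensities were 61639, 64745.5, 63997 and 51626 in Cic-L-/- replicates 1 to 4, against 49168, 43439, 50789 and 43488 in wildtype replicates 1 to 4. On this scale, which is not normalised between arrays, every Cic-L-/- value was above every wildtype value. As a percent of the array's brightest probe, the groups overlapped. The values were 93.9, 100, 100 and 77.4 in Cic-L-/- replicates 1 to 4, against 76.6, 84.3, 83.5 and 73.2 in wildtype replicates 1 to 4. Quantile normalisation gives a probe the value of its rank on the array, which was 2, 1, 1 and 3 in Cic-L-/- liver and 3 on every wildtype array, so that the wildtype log2 values were all 15.66 with an SD of 0. The log2 difference of 0.17 ± 0.13 (SE, adjusted p = 0.487) therefore rests on ranks at the top of the scale.

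The dimmer Hp probes left that ceiling. Probe ILMN_2668510 had log2 values of 13.56, 13.56, 12.47 and 12.47 in Cic-L-/- replicates 1 to 4, against 12.57, 12.70, 12.78 and 12.41 in wildtype replicates 1 to 4. Probe ILMN_2668509 had 12.91, 12.58, 11.84 and 11.73 in Cic-L-/- replicates 1 to 4, against 11.60, 11.59, 11.91 and 11.40 in wildtype replicates 1 to 4. With both probes Cic-L-/- replicates 1 and 2 were above every wildtype sample, while replicates 3 and 4 lay within the wildtype range. Neither passed when each kept probe was tested on its own, where 6.20% of probes passed: the differences were 0.40 ± 0.27 (SE, adjusted p = 0.427) and 0.64 ± 0.25 (adjusted p = 0.172).

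Itih4 had log2 values of 13.77, 13.62, 13.17 and 13.32 in Cic-L-/- replicates 1 to 4, against 13.17, 13.27, 13.06 and 13.21 in wildtype replicates 1 to 4, by its brightest probe. Replicates 1 and 2 were again the highest of the Cic-L-/- samples, and replicates 3 and 4 lay near the wildtype values. The difference was 0.29 ± 0.16 (SE, adjusted p = 0.321). The other 2 probes of the gene gave 0.40 ± 0.18 (adjusted p = 0.221) and -0.00923 ± 0.20 (adjusted p = 0.986) when each kept probe was tested on its own.

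**Figure D2:**
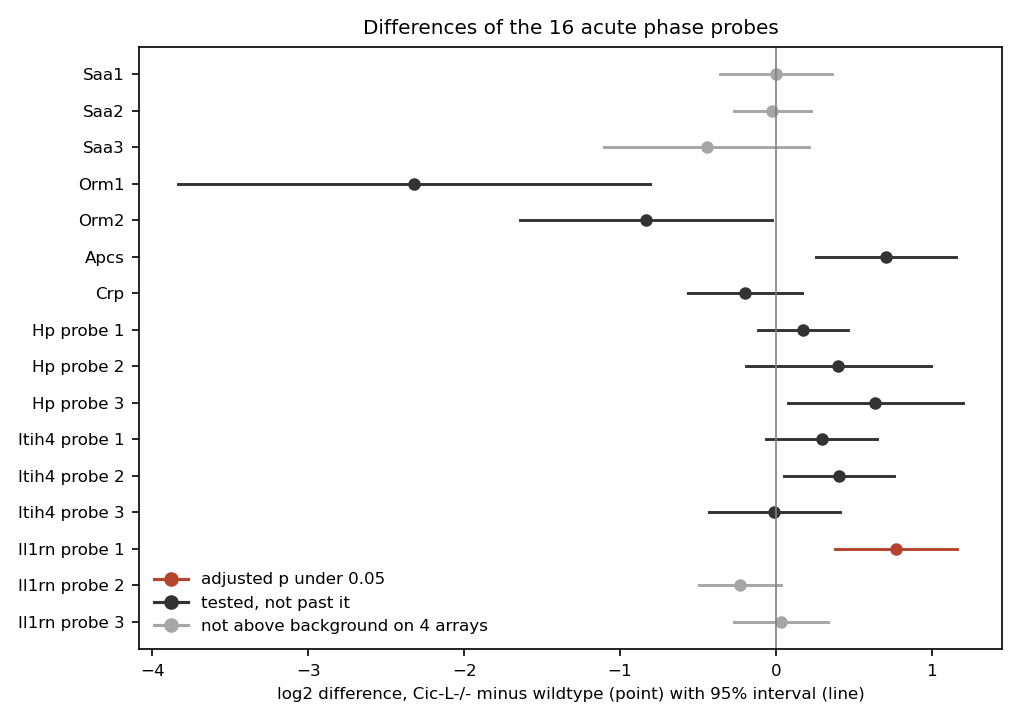
Log2 difference, Cic-L-/- minus wildtype, of each of the 16 probes of the 10 acute phase genes, with the 95% interval as a line. Probes of a gene are numbered from brightest to dimmest; grey marks probes not above background on at least 4 arrays and red the probe that passed. The brightest Il1rn probe is at 0.77 and Orm1 is at -2.32 with the longest interval.

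Il1rn. This gene encodes the interleukin-1 receptor antagonist, which blocks IL-1 signalling and is made by hepatocytes and by leukocytes. Probe ILMN_3072427 had log2 values of 6.01, 5.47, 5.26 and 5.53 in Cic-L-/- replicates 1 to 4, against 4.97, 4.86, 4.78 and 4.58 in wildtype replicates 1 to 4. Every Cic-L-/- value was above every wildtype value, as for 8.53% of all features. The probe was above background on all 4 Cic-L-/- arrays and on 0 wildtype arrays. It rose by 0.77 ± 0.18 (SE, adjusted p = 0.0246). Wildtype liver gave only a bound. Set against the wildtype detection limits, the probe was at least 1.31-fold higher under this background model only, a figure without an error. As it passed the detection filter only through the Cic-L-/- arrays, the filter favoured a difference of this sign; with no detection filter the adjusted p was 0.0379.

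The signal was faint. The unnormalised intensities were 207.0, 171.5, 161.2 and 172.9 in Cic-L-/- replicates 1 to 4, with control medians of 138.5 to 141.9, against 141.2, 123.6, 143.9 and 120.5 in wildtype replicates 1 to 4, with control medians of 114.2 to 136.3. With no background correction the difference was 0.23 (adjusted p = 0.0983), and with an offset of 50 it was 0.40 (adjusted p = 0.0655), so the size depends on the background model. Nor did it pass once replicate 1 (adjusted p = 0.0669) or 2 (adjusted p = 0.0524) of Cic-L-/- was left out, or replicate 2 (adjusted p = 0.0512), 3 (adjusted p = 0.0518) or 4 (adjusted p = 0.0666) of wildtype. The other 2 probes of the gene were not above background on any array and differed by -0.23 (adjusted p = 0.491) and 0.03 (adjusted p = 0.963) in the fit over all probes. Where on the transcripts the 3 probes lie is not given in the sources used here.

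Some leukocyte markers were also higher in Cic-L-/- liver. Over all features 4.49% passed as higher and 2.9% as lower. Of 9 tested neutrophil markers 3 rose, the calprotectin subunits S100a8 and S100a9 and lactoferrin Ltf, and 0 fell. The summed linear intensity of the 10 neutrophil markers on the array was 4049 to 7518 in Cic-L-/- liver, against 2916 to 3377 in wildtype liver, and all 10 were above background on at least 1 array. These 10 include Ltf and Lcn2, which are also counted below among the other positive acute phase genes. Lcn2 itself was highest in Cic-L-/- replicates 1 and 2 (log2 10.90 and 11.13, against 8.79 and 8.92 in replicates 3 and 4). Of 9 tested Kupffer cell and macrophage markers, Marco, Adgre1 and C1qc rose and 0 fell, and the sum of 10 was 4629 to 10139 in Cic-L-/- liver, against 3796 to 4000.4 in wildtype liver. Cd5l was not above background on any array. Both sums were highest in Cic-L-/- replicates 1 and 2. For the neutrophil sum these are also the replicates where Lcn2, which is part of it, was highest. How far Lcn2 makes this order of replicates was not tested. Il1rn was highest in replicate 1, and its log2 values in replicates 2 and 4 were close, at 5.47 and 5.53. The part of these cells in the Il1rn value was not tested.

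**Figure D3:**
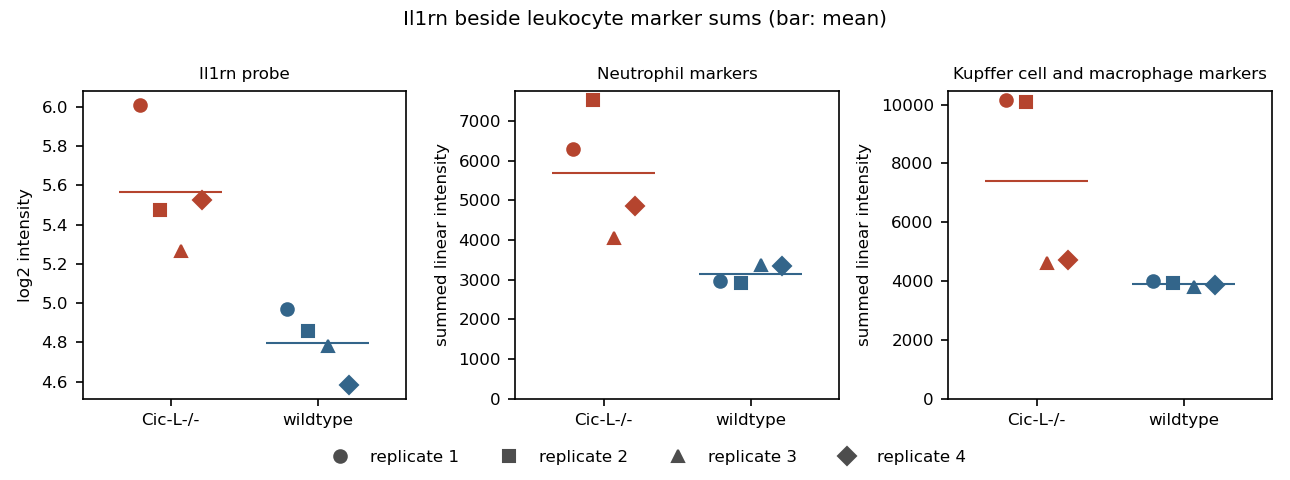
Il1rn by array (left, log2 intensity) beside the summed linear intensity of 10 neutrophil markers (middle) and 10 Kupffer cell and macrophage markers (right), with bars at the means and marker shapes for the replicate numbers. All 3 measures are higher in every Cic-L-/- sample than in every wildtype sample, as are 8.53% of all single features. The macrophage sum is about 10139 in Cic-L-/- replicate 1 and at most 4000.4 in wildtype liver.

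With the group means removed, the likeness of 2 members was taken as Pearson's correlation over the 8 arrays, as a description, and these arrays share the normalisation. Among the 21 pairs of tested members it was highest for Orm2 and Crp (0.91) and for Orm1 and Orm2 (0.90). The pairs without Hp lay between 0.17 (Crp and Il1rn) and 0.91. Of the pairs with Hp, which rest on the probe at the ceiling with constant wildtype values, the one with Il1rn was the only negative value (-0.17). Over all features, those most like Orm1 were Naca, Krt23 and Nipsnap3b (0.98 to 0.99), and those most like Orm2 were Kynu, St3gal6 and Fam25c. Those most like Apcs were Msi2, Cd69 and Thap7, and those most like Crp were Pcmtd1, Ldhd and an unnamed probe. For Hp the measure rests on ranks at the top of the scale in Cic-L-/- samples only, and the features it placed closest were Nr5a2, Znrf2 and an unnamed probe. Il1rn was closest to Gna11, Slc44a3 and H2az1 (0.95), and Itih4 to Irf2bpl, C1qc and Ubb-ps. All of these values lay between 0.95 and 0.99. They are the highest for each member, picked from the 8255 features over only 8 arrays. Values this high can arise by chance in such a search, and how many would do so was not tested. The features named are therefore not taken as varying with the members.

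Other positive acute phase genes. Of 27 tested genes of this kind, Ltf rose 1.72-fold (adjusted p = 0.0123), and Mbl2, a mannose-binding lectin of the complement system, fell 1.81-fold (adjusted p = 0.0409). Hamp2, a second hepcidin gene of the mouse, fell 5.99-fold (adjusted p = 0.0216). No call was made for 24, 14 of the 27 differences were positive, and the median was 0.01. Lcn2, a siderophore-binding protein and a strong target of IL-6 and IL-1 in liver, had log2 values of 10.90, 11.13, 8.79 and 8.92 in Cic-L-/- replicates 1 to 4, against 9.29, 9.29, 9.27 and 9.29 in wildtype replicates 1 to 4. Cic-L-/- replicates 1 and 2 thus lay above wildtype and replicates 3 and 4 below it, with a difference of 0.65 ± 0.47 (SE, adjusted p = 0.452). Haemopexin, Hpx, differed by 0.17 (adjusted p = 0.511) and Hamp by -1.08 (adjusted p = 0.206). Hamp2 no longer passed once Cic-L-/- replicate 1, Cic-L-/- replicate 2 or wildtype replicate 3 was left out (highest adjusted p over its alternatives 0.0750). Mbl2 passed only when the array left out was replicate 2 of Cic-L-/- or replicate 1 of wildtype, and it did not pass with median centring (highest 0.0996).

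Negative acute phase genes. Of 15 tested, thyroxine-binding globulin Serpina7 (4.85-fold, adjusted p = 1.98e-04) and the lipoprotein component Apom (1.97-fold, adjusted p = 0.0231) rose, and fetuin B, Fetub, fell 1.54-fold (adjusted p = 0.0268). The median was 0.16, and 12 genes did not pass. Transthyretin, Ttr, differed by 0.54 (adjusted p = 0.0890). The Alb probe read 5.33 ± 0.51 in Cic-L-/- liver, against 6.01 ± 0.54 in wildtype liver (SD, n = 4 each), close to background, and differed by -0.68 (adjusted p = 0.201). The Ttr probe averaged 14.6 in Cic-L-/- and 14.1 in wildtype liver. With the Alb probe this dim, its difference is not taken as a measure of albumin transcript. Apom no longer passed once Cic-L-/- replicate 2, wildtype replicate 1 or wildtype replicate 4 was left out (highest adjusted p over its alternatives 0.0687). Fetub no longer passed once any of Cic-L-/- replicates 1 and 2 and wildtype replicates 1 to 3 was left out, nor with median centring (highest over all its alternatives 0.0800).

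**Figure D4:**
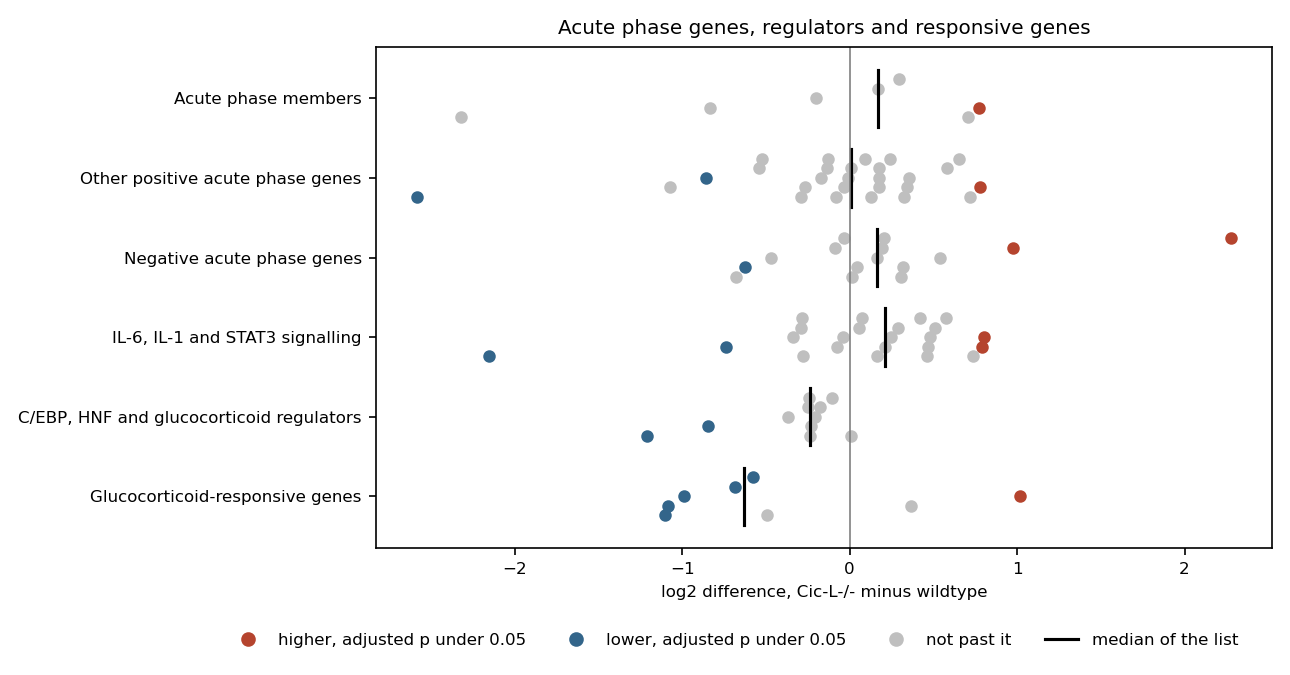
Log2 difference, Cic-L-/- minus wildtype, of each tested gene of 6 lists; every point is a gene, red and blue points passed an adjusted p under 0.05 as higher and lower, and black lines are list medians. The glucocorticoid-responsive genes have the lowest median, -0.63, and the acute phase members have 1 coloured point of 7. The lists were chosen with earlier results of these data known.

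Upstream signalling. In IL-6, IL-1 and STAT3 signalling 2 of 23 tested genes rose and 2 fell, with a median of 0.21. Nfkbiz, the NF-kB cofactor through which IL-1 drives secondary response genes, rose 1.74-fold (adjusted p = 0.0472), and Ptpn6, a phosphatase of haematopoietic cells, rose 1.73-fold (adjusted p = 0.0156). The LIF receptor chain Lifr fell 1.67-fold (adjusted p = 0.0392) and the STAT5 target Cish 4.44-fold (adjusted p = 5.34e-04). Stat3 had log2 values of 9.31, 9.32, 8.66 and 8.75 in Cic-L-/- replicates 1 to 4, against 8.64, 8.45, 8.33 and 8.70 in wildtype replicates 1 to 4, and differed by 0.48 ± 0.19 (SE, adjusted p = 0.156). The feedback inhibitor Socs3 differed by 0.25 (adjusted p = 0.403) and the gp130 gene Il6st by 0.51 (adjusted p = 0.257), while Il6ra was above background on 3 arrays in all and was not tested. The Nfkbiz call ended without any array but wildtype replicate 1 (highest adjusted p over its alternatives 0.108), and its difference was as small as 0.43. The Lifr call ended without any array but replicate 2 of Cic-L-/-, and also with no background correction, normexp without the control rows, an offset of 50, median centring or no detection filter (highest adjusted p 0.110). The Lifr difference, -0.74 as reported, came as near 0 as -0.23 over these alternatives, so its fold depends on them. Ptpn6 differed by 0.41 (adjusted p = 0.158) as the mean of its probes.

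Of 11 tested C/EBP, HNF and glucocorticoid regulators, 0 rose and 2 fell, and the median was -0.24. Cebpb, the C/EBP factor that mediates the IL-6 response of acute phase promoters, had log2 values of 11.34, 11.42, 10.67 and 11.26 in Cic-L-/- replicates 1 to 4, against 12.16, 11.96, 12.11 and 11.85 in wildtype replicates 1 to 4. It fell 1.80-fold (adjusted p = 0.0170), with no overlap between the groups, and Foxa1 fell 2.31-fold (adjusted p = 0.00138). The probes of Cebpa and of the glucocorticoid receptor gene, Nr3c1, were not above background on any array. Cebpd had no probe named for it alone. Among 8 tested glucocorticoid-responsive genes, Tsc22d3 (2.15-fold, adjusted p = 0.0184), Dusp1 (2.12-fold, adjusted p = 0.0225), Klf9 (1.99-fold, adjusted p = 0.0130), Errfi1 (1.61-fold, adjusted p = 0.0440) and Fkbp5 (1.49-fold, adjusted p = 0.0373) fell. Sgk1, a kinase that glucocorticoids also induce, rose 2.02-fold (adjusted p = 0.00747), and the median was -0.63. The 2 genes not called were Per1 (0.37, adjusted p = 0.198) and Pck1 (-0.49, adjusted p = 0.281). This list was chosen with earlier results of these data known, so its calls are not independent evidence of a shared change. The Cebpb call ended without wildtype replicate 1 (adjusted p = 0.0509), that of Tsc22d3 without replicate 1 or 2 of Cic-L-/- (highest 0.0586), and that of Dusp1 without replicate 1 of either group or replicate 2 of wildtype (highest 0.0669). Errfi1 and Fkbp5 did not pass with median centring. The call of Errfi1 also ended without any array but replicate 4 of either group (highest over all its alternatives 0.122), and that of Fkbp5 without any array but wildtype replicate 4 (highest over all its alternatives 0.189).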

How the data were processed

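The deposited signal table holds the authors' intensity values without normalisation, and the deposited normalised table holds log2 values; per the labels, Cy3 labelling followed the array maker's protocol. Recomputing log2 and quantile normalisation over all 26821 rows gave the deposited log2 values to within 5.0e-05. From the intensities, the 1124 rows without a probe ID were taken as negative controls, a reading of the values since the table does not name them. Background was corrected with normexp (limma 3.58.1 under R 4.3.3, offset 16) before log2 and quantile normalisation. A probe needed a detection p under 0.05 on 4 or more arrays, and 10300 passed, and the brightest kept probe stood for a gene. This gave 8255 features. The offset lowers the fold changes of dim probes. Groups of 4 were compared with lmFit and eBayes, two-sided, without covariates. At least N-fold sets the bright group against the higher of each dim array's lowest detected value and the probe's own. It holds for the background model used and carries no error. Array number limits the precision.

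The fit was tested on simulated data in which a feature had the same spread in both groups, unlike Orm1. It called 65% of 100 features changed by 1 log2 unit and 99% of 100 changed by 2. Of all 172 calls, 8 were false. A member not called may thus still differ by 1 log2 unit or less. The sources used here name no scanner or software. Alternatives were other background corrections and offsets, median centring, detection filters, probe rules, a variance trend, the replicate block and leaving out each array. The members, lists and cell type markers were chosen with earlier results of these data known. All members were named with every probe, all called genes of the lists, and a fixed set of further regulators and acute phase genes (Cebpb, Cebpd, Stat3, Il6ra, Il6st, Socs3, Saa4, Orm3, Lcn2, Hamp, Hpx, Fgb, Alb, Ttr, Nr3c1), and also the 3 features most like each tested member. Named after their values were seen were Fga, Fgg, Cebpa, Per1, Pck1 and the called markers outside the lists. Gene names came from the platform annotation, and promoter windows, searched with Python 3.11.15 and aligned with Biopython 1.88, from RefSeq.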

Additional observations from a re-analysis of the deposited data

Results flagged for a closer look

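Among the 32 groups of 4 values, 16 probes in each genotype, 3 held a sample far from the other 3, measured as its gap to the nearest divided by the whole range. Chance flags about 1 group in 20. Wildtype replicate 4 stood above the others for Orm1, at 10.29 with the nearest at 8.98 (ratio 0.906). Wildtype replicate 2 stood above the others for Apcs, at 9.24 with the nearest at 8.57 (ratio 0.889). Wildtype replicate 2 also stood above the others for Saa1, at 4.88 with the nearest at 4.40 (ratio 0.844), where all values were at background.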

How the results depend on the processing

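The differences of the 7 tested members kept their sign under every alternative run. Reversals occurred for 1 Itih4 probe (ILMN_2797276, -0.00923 as reported), which was 0.094 with median centring and -0.13 to 0.15 with 1 array left out. The count of members called, 1 as reported, was 2 with no background correction, an offset of 50, median centring or the replicate block, 3 with normexp fitted without the control rows or with a variance trend, and 0 to 2 with 1 array left out. In these counts Apcs and Orm1 came in and Il1rn went out, as given beside each gene. Features called numbered 610, and 353 to 631 with 1 array left out. Genes called in the other lists numbered 18, and 9 to 16 with 1 array left out, and 11 when each probe on the array was tested on its own, where Apom, Dusp1, Errfi1, Hamp2, Lifr, Mbl2 and Nfkbiz were lost. Median centring ended the calls of Errfi1, Fetub, Fkbp5, Lifr and Mbl2, the replicate block those of Errfi1, Fetub, Fkbp5, Lifr and Nfkbiz, and dropping the detection filter those of Errfi1, Hamp2, Lifr, Mbl2 and Nfkbiz. Median centring moved the median of all features by 0.17 and the share of calls that were higher to 84.3%, against 60.8% as reported. Samples of the same replicate number did not deviate together (correlations -0.03 to 0.05 across features), so the numbers were not taken as pairs; with the replicate block, 468 features were called. Signal over background limits Saa1, Saa2, Saa3, Il1rn and Orm2, and the ceiling of the scale limits the brightest Hp probe.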

Other observations

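Of 4 tested lymphocyte markers the B cell receptor subunit Cd79a rose, 0 fell, and the summed linear intensity of 10 markers on the array was 454 to 699 in Cic-L-/- liver, against 382 to 437 in wildtype liver, with Cd4 and Cd8a not above background on any array. Of the 5 hepatocyte, 6 endothelial, 5 stellate and 2 erythroid markers tested, 0 were called in either direction. The hepatocyte sum was 69452 to 80660.2 in Cic-L-/- liver, against 63071 to 72398.5 in wildtype liver. It includes Alb, Apoa1 and Ttr, also counted above as negative acute phase genes, and Serpina1a, counted as a positive one. The sum is therefore not separate from the acute phase genes. Of 3 cholangiocyte markers on the array 0 passed the detection filter. The 1 adipocyte marker tested was not called, while the sum of 3 on the array was 96.9 to 114.5 in Cic-L-/- liver, against 126.5 to 131.5 in wildtype liver, with Adipoq and Plin1 not above background on any array. Of 3 tested exocrine pancreas markers the elastase Cela2a fell, and the sum of 4 was 274.9 to 381.9 in Cic-L-/- liver, against 383.4 to 620.4 in wildtype liver.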
